A study of Mus musculus with 7 samples.

Results

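Mesenchymal identity in these cells was followed through 10 genes, chosen by name as fibroblast surface, cytoskeletal and epithelial-to-mesenchymal transition (EMT) transcription factor genes: Thy1, Vim, S100a4, Fap, Twist1, Twist2, Snai1, Snai2, Zeb1 and Zeb2. All 10 had a row among the 29955 genes of the expression table, and all 10 were among the 16900 genes that averaged at least 10 normalized reads and were tested. The RNA came from mouse embryonic fibroblasts (MEFs), connective tissue cells grown out of embryos, of strain C57BL/6. Every library lacked p53, the tumour suppressor encoded by Trp53. The p53KO Mdm2(C462A) KI group (2 libraries) also carried the C462A substitution in Mdm2, the E3 ligase that targets p53 for proteasomal breakdown. The p53Mdm2 KO group (2 libraries) lacked Mdm2 as well as p53, and the p53 KO group (3 libraries) had p53 removed and no Mdm2 change named. No label gave the alleles, the embryos or the cultures behind the replicates, so p-values measure only the spread between these libraries, which may be technical.

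EMT is the programme by which epithelial cells lose their junctions and take on the shape and motility of mesenchymal cells, in embryos, wounds and tumours. Snail (Snai1, Snai2), ZEB (Zeb1, Zeb2) and Twist (Twist1, Twist2) factors drive it. Snail and ZEB proteins bind E-box letters and silence epithelial genes such as Cdh1, while Twist proteins act as dimers of basic helix-loop-helix factors. Fibroblasts are mesenchymal cells already, and they normally hold these factors together with vimentin filaments and the surface protein Thy1.

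Values below are normalized reads, recovered from the deposited log2-like values, and differences are log2 differences on the deposited scale. Recovered totals ran from 28.5 to 41.5 M reads a library (M, reads in units of 1e6), so that 3 reads, the limit a count of 0 allows, equalled 2.65 to 3.86 normalized reads (counting error only). The libraries did not sort by genotype: the first principal component (44.3% of the variance) set p53 KO replicate 1 apart from the other 6, and the second (24.9%) set Mdm2(C462A) KI replicate 2 apart. Values without 1 or both of these libraries stand beside many of the results, but not beside every gene named. Mdm2 itself was read at 1575 to 2887 normalized reads and Trp53 at 687 to 1775 across all 7 libraries, including those labelled as knockouts. Gene totals can hold reads from outside a deleted part, so these levels check no label.

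Promoter letters are shown for the 3 members with an unadjusted p under 0.05 between Mdm2(C462A) KI and p53 KO, namely Snai1, Vim and S100a4. Each window runs from 250 bases before to 50 bases after the annotated start and is RefSeq sequence of GRCm38.p6, read 5′ to 3′ on the gene's plus strand. The windows are chr2:167537945-167538244 for Snai1, chr2:13574061-13574360 for Vim and chr3:90603520-90603819 for S100a4. Capitals mark the letters of the motifs searched on both strands: CAGGTG, an E-box of Snail and ZEB factors, CAGATG, an E-box that Twist factors are known to bind, the TATA letters TATAAA, the CCAAT box and the GC box GGGCGG.
Snai1: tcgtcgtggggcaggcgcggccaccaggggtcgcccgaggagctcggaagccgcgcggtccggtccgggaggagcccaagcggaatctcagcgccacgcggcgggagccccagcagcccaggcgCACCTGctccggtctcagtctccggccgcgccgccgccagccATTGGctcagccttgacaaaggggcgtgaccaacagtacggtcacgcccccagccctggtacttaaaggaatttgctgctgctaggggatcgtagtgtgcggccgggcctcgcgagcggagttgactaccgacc
Vim: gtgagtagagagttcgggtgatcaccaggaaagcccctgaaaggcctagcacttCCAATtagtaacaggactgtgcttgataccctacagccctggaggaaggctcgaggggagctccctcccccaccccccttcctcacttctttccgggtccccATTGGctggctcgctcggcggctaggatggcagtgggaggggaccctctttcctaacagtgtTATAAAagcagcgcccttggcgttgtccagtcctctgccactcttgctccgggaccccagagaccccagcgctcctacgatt
S100a4: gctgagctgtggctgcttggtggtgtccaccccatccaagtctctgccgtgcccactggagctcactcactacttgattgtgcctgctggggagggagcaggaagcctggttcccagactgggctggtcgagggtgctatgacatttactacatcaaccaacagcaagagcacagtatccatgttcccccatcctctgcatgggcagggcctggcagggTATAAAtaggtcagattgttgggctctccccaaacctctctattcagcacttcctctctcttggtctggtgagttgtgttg

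The Snai1 window held the CAGGTG E-box, read as CACCTG on the strand shown, beginning at position -126 from the start (negative positions lie before it). It also held CCAAT, read as ATTGG, at -84. The Vim window held TATAAA at -32 and CCAAT letters at -196 and -94, the nearer one read as ATTGG. The S100a4 window held TATAAA at -31 and no other motif searched. No match overlapped another. Of 32851 RefSeq mouse promoter windows of this length, 20.2% held CAGGTG, 17.2% held CAGATG, 13.6% held TATAAA, 37.4% held CCAAT and 35.7% held GGGCGG. Windows of 6 of the 10 members were searched, and CAGATG was in none of them. A letter match describes the window and is no evidence that a factor binds there.

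Per kilobase of exon (GENCODE M21 exon lengths), the median levels of Vim, S100a4 and Thy1 stood far above those of the transcription factors. In p53 KO replicate 1, however, Thy1 fell to 52.8 per kb, below the lowest level of every factor. Vimentin led with a median level of 50253 normalized reads per kb over the 7 libraries, followed by S100a4 with 21624 and Thy1 with 16087. Among the factors the median levels per kb were 1188 for Twist1, 878 for Snai2, 836 for Snai1, 663 for Twist2, 422 for Zeb1 and 192 for Zeb2. Fap was lowest, at 103 per kb. The neighbours Twist1, Snai2, Snai1 and Twist2 overlapped in their ranges per kb across libraries, and so did Vim, S100a4 and Thy1. A large part of the S100a4 and Twist2 sequence is shared with overlapping annotated genes (47.4% of 50-base runs with Gm42674 and 45.7% with the antisense Gm29100), so part of their reads cannot be assigned with certainty. The other 8 members shared at most 2.26% of such runs with any gene.

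**Figure D1:**
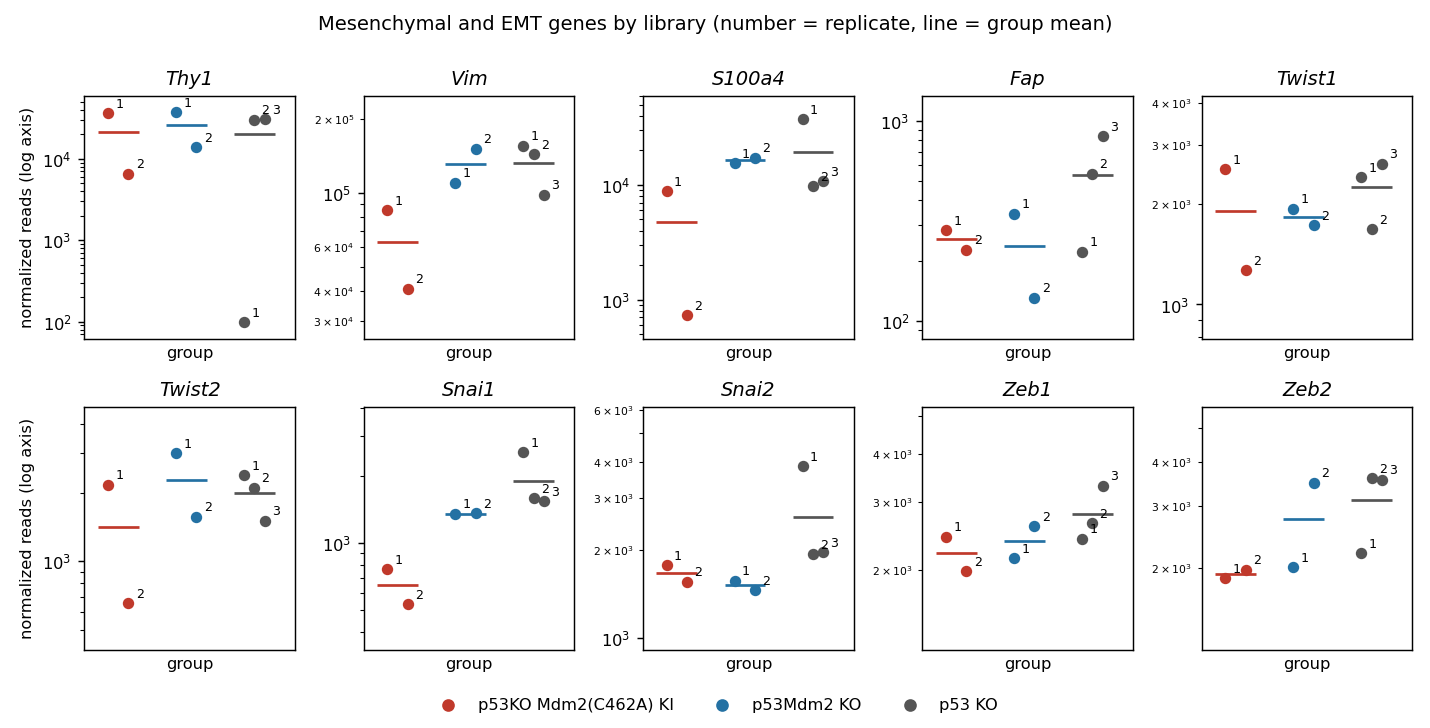
Normalized reads (log axis, a separate range for each gene) of the 10 genes in each library; points are libraries numbered by replicate, lines are group means, and groups run from p53KO Mdm2(C462A) KI through p53Mdm2 KO to p53 KO. Thy1 in p53 KO replicate 1 (99.1 normalized reads) and S100a4 in Mdm2(C462A) KI replicate 2 (731) lie furthest from the rest of their groups, and both Mdm2(C462A) KI points of Snai1 lie below all others.

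Thy1, the GPI-anchored surface protein (CD90) used to sort fibroblasts, varied more between libraries than any other member. It had 36470.3 and 6592 normalized reads in Mdm2(C462A) KI replicates 1 and 2, 37385.5 and 14002 in p53Mdm2 KO replicates 1 and 2, and 99.1, 30211 and 30830.4 in p53 KO replicates 1, 2 and 3. The single p53 KO replicate 1 was thus 66.5 times below the next lowest library, and the p53 KO group alone spanned a 311-fold range. Across all 7 libraries the highest level was 377 times the lowest, a ratio above that of 99.4% of the 12859 genes averaging at least 100 normalized reads. Without p53 KO replicate 1 the ratio was 5.67. In bulk RNA, fewer Thy1-bearing cells and less Thy1 RNA per cell cannot be told apart.

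The groups overlapped for Thy1 in every comparison. Its log2 difference was 1.69 for Mdm2(C462A) KI against p53 KO (95% interval -4.24 to 7.63), 2.25 for p53Mdm2 KO against p53 KO (-3.68 to 8.19) and -0.56 for Mdm2(C462A) KI against p53Mdm2 KO (-7.06 to 5.94). None passed limma's test, with Benjamini-Hochberg adjusted p-values of 0.848, 1.0 and 1.0. Without p53 KO replicate 1 the first 2 differences were -0.98 and -0.42. Without Mdm2(C462A) KI replicate 2 as well, the first was 0.26, so that its sign depended on both libraries.

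The same library, p53 KO replicate 1, was low in some other fibroblast and mesenchymal genes and high in others. Col1a2, a chain of type I collagen, had 3456 normalized reads in p53 KO replicate 1 and between 175050 and 547553 in the other 6 libraries, while its partner chain Col1a1 had 457995 there, within the range of the others. The Col1a2 to Col1a1 ratio was 0.00755 in that library and 0.694 to 0.995 elsewhere. Pdgfra (6863) and Pdgfrb (16538), receptors that mark fibroblasts, lay within the range of the other libraries. Lum, a matrix proteoglycan, had 55.4 in p53 KO replicate 1, against 52.8 to 2156 in the other 6. Among mesenchymal genes, Cdh11 (5360 normalized reads), Fn1 (156823), Ddr2 (8403), Cdh2 (5057) and Itgb1 (48869) were also lowest in that library. Going the other way, Postn (120478), Dpt (1794) and Nt5e (573) were highest there. So was Col3a1 (166679), with p53 KO replicate 3 close to it (166438).

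Vim encodes vimentin, the intermediate filament protein of mesenchymal cells. It had 85185 and 40846 normalized reads in Mdm2(C462A) KI, 110204 and 151271 in p53Mdm2 KO, and 155416, 143854 and 98410.4 in p53 KO. Both Mdm2(C462A) KI libraries lay below all 5 others, and the p53Mdm2 KO and p53 KO ranges overlapped. The log2 difference was -1.14 for Mdm2(C462A) KI against p53 KO (SE 0.421, 95% interval -2.15 to -0.13), with an unadjusted p of 0.0327 and an adjusted p of 0.452 in limma. Without Mdm2(C462A) KI replicate 2 the difference was -0.61, and without p53 KO replicate 1 as well it was -0.48. Against p53Mdm2 KO the log2 difference was -1.13 (unadjusted p 0.0470, adjusted p 1.0 in limma), and -0.60 without Mdm2(C462A) KI replicate 2. For p53Mdm2 KO against p53 KO it was -0.01 (95% interval -1.02 to 1.00).

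S100a4 (fibroblast-specific protein), a small calcium-binding protein tied to cell motility, had 8828 and 731 normalized reads in Mdm2(C462A) KI, 15432 and 17241 in p53Mdm2 KO, and 37554, 9779 and 10769 in p53 KO. Both Mdm2(C462A) KI libraries again lay below the other 5, but they differed 12.1-fold from each other. The log2 difference from p53 KO was -2.62 (95% interval -5.19 to -0.04, unadjusted p 0.0472, adjusted p 0.475 in limma). It was -0.84 without Mdm2(C462A) KI replicate 2 and -0.22 without p53 KO replicate 1 as well. Without those 2 libraries the remaining 5 spanned a 1.95-fold range, against 51.4-fold over all 7. Between Mdm2(C462A) KI and p53Mdm2 KO the log2 difference was -2.66 (unadjusted p 0.0605), and -0.88 without Mdm2(C462A) KI replicate 2. For p53Mdm2 KO against p53 KO it was 0.04 (95% interval -2.53 to 2.62).

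Fap, the fibroblast activation protein, a cell-surface serine peptidase of activated fibroblasts, was the least abundant member. It had 284 and 227 normalized reads in Mdm2(C462A) KI, 342 and 130.04 in p53Mdm2 KO, and 222, 544 and 836 in p53 KO. The 2 highest values were p53 KO replicates 2 and 3, but p53 KO replicate 1 lay below both Mdm2(C462A) KI libraries, so the groups overlapped. The log2 difference was -0.84 for Mdm2(C462A) KI against p53 KO (95% interval -2.30 to 0.63) and -1.07 for p53Mdm2 KO against p53 KO (-2.54 to 0.40). Without p53 KO replicate 1 it was -1.34 in the first and -1.58 in the second, and without Mdm2(C462A) KI replicate 2 as well the first was -1.19. Between Mdm2(C462A) KI and p53Mdm2 KO it was 0.23 (-1.38 to 1.84).

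Among the transcription factors, Snai1 showed the most regular order by genotype. It encodes Snail, the zinc-finger repressor of Cdh1, and had 762 and 532 normalized reads in Mdm2(C462A) KI, 1353 and 1356 in p53Mdm2 KO, and 2540.4, 1585 and 1539 in p53 KO. No group overlapped another: Mdm2(C462A) KI was lowest, p53Mdm2 KO intermediate and p53 KO highest. The group means were 647 ± 163 in Mdm2(C462A) KI (SD, n = 2), 1354 ± 2.11 in p53Mdm2 KO (SD, n = 2) and 1888 ± 565 in p53 KO (SD, n = 3). The log2 difference was -1.50 for Mdm2(C462A) KI against p53 KO (SE 0.281, 95% interval -2.18 to -0.82). Its unadjusted p was 0.00142 and its adjusted p 0.437 in limma, so it did not pass. The difference was -1.25 without Mdm2(C462A) KI replicate 2, -1.27 without p53 KO replicate 1 and -1.02 without both.

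Against p53Mdm2 KO, Snai1 in Mdm2(C462A) KI differed by -1.06 on the log2 scale (95% interval -1.81 to -0.32, unadjusted p 0.0121, adjusted p 1.0 in limma). Without Mdm2(C462A) KI replicate 2 it differed by -0.81. For p53Mdm2 KO against p53 KO the difference was -0.43 (95% interval -1.11 to 0.24), and -0.20 without p53 KO replicate 1.

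Snai2 encodes Slug, the second Snail factor. It had 1774 and 1554 normalized reads in Mdm2(C462A) KI, 1569 and 1454 in p53Mdm2 KO, and 3856, 1931 and 1963 in p53 KO. Every library of both Mdm2 groups lay below every p53 KO library, with p53 KO replicate 1 at 1.96 times the next highest. The log2 difference was -0.55 for Mdm2(C462A) KI against p53 KO (unadjusted p 0.135) and -0.69 for p53Mdm2 KO against p53 KO (unadjusted p 0.0744), both short of limma's threshold. Without p53 KO replicate 1 they were -0.23 and -0.36, and the other 6 libraries spanned a 1.35-fold range. The 2 Snail genes therefore stood in different proportion: the Snai2 to Snai1 ratio of normalized reads was 2.33 and 2.92 in Mdm2(C462A) KI, 1.16 and 1.07 in p53Mdm2 KO, and 1.52, 1.22 and 1.28 in p53 KO. Both Mdm2(C462A) KI ratios lay above the other 5, a pattern seen after the values were examined and not tested.

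Twist1 and Twist2 (Dermo1) are close relatives of the basic helix-loop-helix family. Twist1 had 2543 and 1264 normalized reads in Mdm2(C462A) KI, 1934 and 1723 in p53Mdm2 KO, and 2405, 1679 and 2634 in p53 KO. Twist2 had 2168 and 653 in Mdm2(C462A) KI, 2977 and 1571 in p53Mdm2 KO, and 2390.4, 2104 and 1506 in p53 KO. Both genes were lowest in Mdm2(C462A) KI replicate 2, while replicate 1 of that group lay inside the p53 KO range for each. All groups overlapped. For Mdm2(C462A) KI against p53 KO the log2 difference was -0.29 for Twist1 (95% interval -1.11 to 0.52) and -0.71 for Twist2 (-2.01 to 0.59), and without Mdm2(C462A) KI replicate 2 these became 0.21 and 0.14.

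Zeb1 had the smallest range of the 10 genes and Zeb2 a range near that of a typical gene. Zeb1 had 2446 and 1993 normalized reads in Mdm2(C462A) KI, 2152 and 2601 in p53Mdm2 KO, and 2415, 2651 and 3310.2 in p53 KO. Its highest library was 1.66 times its lowest, below the median ratio of 1.89 over the 12859 genes averaging at least 100 normalized reads. Zeb2 had 1866 and 1973 in Mdm2(C462A) KI, 2011 and 3494 in p53Mdm2 KO, and 2197, 3592 and 3560.4 in p53 KO, a ratio of 1.92. Both Mdm2(C462A) KI libraries were the lowest for Zeb2, with p53Mdm2 KO replicate 1 and p53 KO replicate 1 close above them. The log2 difference from p53 KO was -0.66 for Zeb2 (unadjusted p 0.0806) and -0.32 for Zeb1 (unadjusted p 0.164) in limma, and without both p53 KO replicate 1 and Mdm2(C462A) KI replicate 2 these were -0.93 and -0.27.

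**Figure D2:**
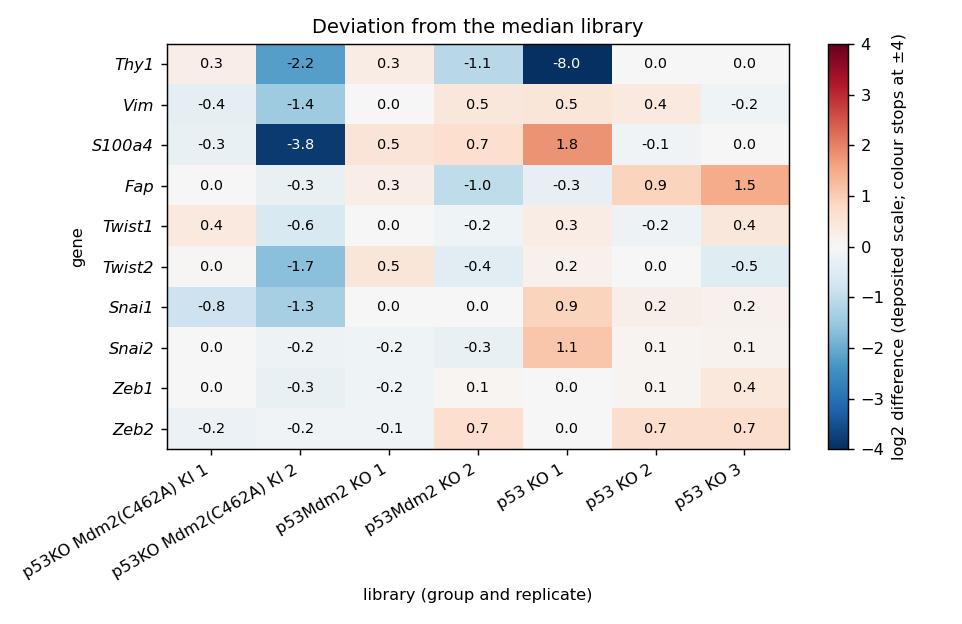
Each gene's deviation in each library from its median over the 7 libraries (log2 difference on the deposited scale; blue below and red above, colour stops at ±4). Mdm2(C462A) KI replicate 2 is below the median for all 10 genes, and p53 KO replicate 1 combines the lowest Thy1 (-8.0) with S100a4, Snai1 and Snai2 above their medians.

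Single libraries held many of the extremes. Mdm2(C462A) KI replicate 2 was the lowest library for 6 members (Vim, S100a4, Twist1, Twist2, Snai1 and Zeb1), and it was the lowest for 21.5% of all 16900 genes tested. The p53 KO replicate 1 library was the highest for 4 (Vim, S100a4, Snai1 and Snai2) and the lowest for Thy1, against 28.1% and 26.4% of all genes tested. The remaining minima were Fap and Snai2 in p53Mdm2 KO replicate 2 and Zeb2 in Mdm2(C462A) KI replicate 1. p53 KO replicate 3 was the highest for Fap, Twist1 and Zeb1, p53 KO replicate 2 for Zeb2, and p53Mdm2 KO replicate 1 for Thy1 and Twist2.

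Set side by side, 9 of the 10 members were lower in Mdm2(C462A) KI than in p53 KO by their log2 difference, with a median of -0.68 against 0.01 for all genes tested. Leaving out Mdm2(C462A) KI replicate 2 gave 7 lower and 3 higher (median -0.53), and without p53 KO replicate 1 as well the median was -0.25. No member passed the adjusted threshold of 0.05 in limma, where 0% of all genes did. At an unadjusted p under 0.05 there were 3 members (Snai1, Vim and S100a4, all lower), against 10.4% of all genes. In 5 members (Vim, S100a4, Snai1, Snai2 and Zeb2) both Mdm2(C462A) KI libraries lay below all 3 p53 KO libraries, as in 14.4% of all genes. In 0 members they lay above, against 14.1% of all genes. With fewer libraries, separation is commoner for every gene. The count of 5 became 8 without Mdm2(C462A) KI replicate 1 (29.3% of all genes), and 7 without both Mdm2(C462A) KI replicate 2 and p53 KO replicate 1 (38% of all genes). In that last case 2 members lay above (38.4% of all genes). In 4 members (Vim, S100a4, Snai1 and Zeb2) both Mdm2(C462A) KI libraries lay below all 5 others, as in 7.97% of all genes.

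For p53Mdm2 KO against p53 KO, 7 members were lower and 3 higher by their log2 difference, with a median of -0.21 against -0.01 for all genes. No member passed at an adjusted p under 0.05 (0% of all genes) or at an unadjusted p under 0.05 (3% of all genes). Snai1 and Snai2 were lower in both p53Mdm2 KO libraries than in all p53 KO libraries, a pattern found in 9.2% of all genes, and no member was higher in both (8.99% of all genes). Without p53 KO replicate 1, 5 members lay lower (18.5% of all genes) and 1 higher (17.6% of all genes). Without p53Mdm2 KO replicate 2, 4 lay lower (23.1% of all genes) and 2 higher (22% of all genes).

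For Mdm2(C462A) KI against p53Mdm2 KO, 8 members were lower and 2 higher, with a median log2 difference of -0.51 against 0.01 for all genes. With Mdm2(C462A) KI replicate 2 left out, 4 were lower and 6 higher (median 0.03). No member had an adjusted p under 0.05 (0% of all genes), and Snai1 and Vim had an unadjusted p under 0.05 (2.98% of all genes). In 4 members (Vim, S100a4, Snai1 and Zeb2) both Mdm2(C462A) KI libraries were below both p53Mdm2 KO libraries, as in 17.1% of all genes, and in 0 members above, against 15.8% of all genes. The count of 4 became 8 without Mdm2(C462A) KI replicate 1 (36.5% of all genes) and 7 without p53Mdm2 KO replicate 2 (28.8% of all genes). The 0 above became 2 without Mdm2(C462A) KI replicate 2 (32.7% of all genes) and 2 without p53Mdm2 KO replicate 1 (35.9% of all genes). The 3 comparisons share libraries with one another, so their values are not independent.

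**Figure D3:**
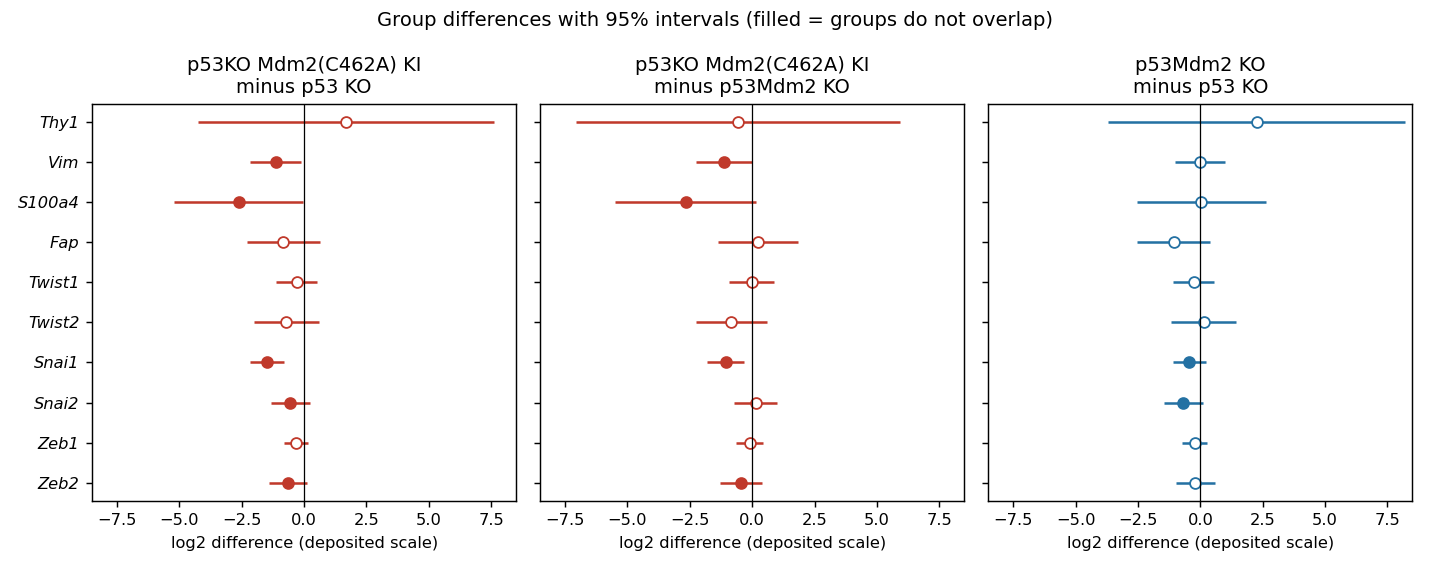
Log2 differences (points, deposited scale) with 95% intervals from limma (lines) for the 10 genes in the 3 comparisons; filled points mark genes whose groups do not overlap. The Snai1 and Vim intervals lie below 0 in both comparisons that involve p53KO Mdm2(C462A) KI. The S100a4 interval does so only in the comparison of that group with p53 KO. Thy1 has the widest interval in all 3 comparisons.

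Genes that work with the members were read from named lists. Of 18 tested EMT transcription factors and partners outside the 10, 15 were lower and 3 higher in Mdm2(C462A) KI than in p53 KO (median log2 difference -0.48), 0 with an adjusted p under 0.05. The 3 with an unadjusted p under 0.05 (10.4% of all genes) were Prrx2, Foxc2 and Id2, all lower. When Mdm2(C462A) KI replicate 2 was left out, the list turned to 7 lower and 11 higher (median 0.13), and without p53 KO replicate 1 as well it stood at 9 and 9 (median -0.02). Prrx2, a mesenchymal homeobox factor, had 1276 and 460 normalized reads in Mdm2(C462A) KI, 1780 and 1593 in p53Mdm2 KO, and 4824, 1405 and 2644 in p53 KO. Foxc2, a forkhead factor of mesenchyme and vessels, had 408 and 362 in Mdm2(C462A) KI, 757 and 1098 in p53Mdm2 KO, and 1879.6, 1012 and 544 in p53 KO. Id2, which blocks basic helix-loop-helix partners, had 720 and 529 in Mdm2(C462A) KI, 1214 and 1318 in p53Mdm2 KO, and 1635, 760.2 and 1260 in p53 KO. All 3 were lower in both Mdm2(C462A) KI libraries than in every other library, which held for 7.97% of all genes.

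Vimentin works beside other structural genes. Of 15 intermediate filament, lamin, tropomyosin, actin and membrane-linker genes, 13 were lower and 2 higher than in p53 KO (median log2 difference -0.80), 9 at an unadjusted p under 0.05 (10.4% of all genes) and 0 at an adjusted one. The 2 higher were Des (0.42) and Ezr (0.45), and Actb, Plec, Msn and Nes overlapped between the groups. All 15 were lower without Mdm2(C462A) KI replicate 2 (median -0.67, 4 at an unadjusted p under 0.05), and again without p53 KO replicate 1 as well (median -0.63, 5 at an unadjusted p under 0.05). Synm, which encodes the vimentin-binding filament protein synemin, had 92.2 and 65.3 normalized reads in Mdm2(C462A) KI, 108 and 108 in p53Mdm2 KO, and 571, 505 and 427 in p53 KO. Its log2 difference was -2.41 for Mdm2(C462A) KI against p53 KO (adjusted p 0.2998 in limma) and -2.02 for p53Mdm2 KO against p53 KO (adjusted p 0.587). Tpm2 and Tpm1, tropomyosins of actin filaments, differed by -1.45 and -0.93 and the nuclear lamin Lmnb1 by -1.17 between Mdm2(C462A) KI and p53 KO. Against p53Mdm2 KO, 13 of the 15 were also lower in Mdm2(C462A) KI (median -0.79), with Tpm2, Tpm4 and Lmnb1 at an unadjusted p under 0.05 (2.98% of all genes). There too all 15 were lower without Mdm2(C462A) KI replicate 2 (median -0.55), with 0 at an unadjusted p under 0.05. For p53Mdm2 KO against p53 KO, 8 were lower and 7 higher (median -0.10), and 13 lower and 2 higher without p53 KO replicate 1 (median -0.09).

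All 8 tested members of the S100 family besides S100a4 were lower in Mdm2(C462A) KI than in p53 KO by their log2 difference (median -0.71). With p53 KO replicate 1 left out, 5 were lower and 3 higher (median -0.49), and without Mdm2(C462A) KI replicate 2, 7 were lower and 1 higher (median -0.73). In p53 KO replicate 1 S100a1 had 1084 normalized reads and S100a16 963, against 145 and 141 (S100a1) and 121 and 315 (S100a16) in p53 KO replicates 2 and 3. S100a10, the annexin-binding member, had 4765 and 3487 normalized reads in Mdm2(C462A) KI, 7115 and 6641 in p53Mdm2 KO, and 6708, 6893 and 6956 in p53 KO. S100a11 had 9751 and 4001 in Mdm2(C462A) KI, 13174 and 15769 in p53Mdm2 KO, and 18366, 16139.8 and 14481 in p53 KO. These 2 had an unadjusted p under 0.05 (0.00513 and 0.00908 in limma), and their log2 differences were -0.75 and -1.38. Against p53Mdm2 KO, 6 of 8 were lower in Mdm2(C462A) KI (median -0.73), including S100a10, S100a11 and S100a3 at an unadjusted p under 0.05, and for p53Mdm2 KO against p53 KO 5 of 8 were lower (median -0.38), and 4 of 8 without p53 KO replicate 1 (median 0.05).

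Matrix and adhesion genes of mesenchymal cells gave no common direction. Of 30 tested, 16 were higher and 14 lower in Mdm2(C462A) KI than in p53 KO (median log2 difference 0.02), 4 at an unadjusted p under 0.05, a share near the 10.4% of all genes, and all 4 lower. Leaving out p53 KO replicate 1, 10 were higher and 20 lower (median -0.46), and without Mdm2(C462A) KI replicate 2, 19 were higher and 11 lower (median 0.32). Among them Itga5, the fibronectin receptor subunit, differed by -1.15, the collagen crosslinker Lox by -1.12 and the collagen gene Col5a1 by -1.22. Itga5 had 9191.5 and 8164 normalized reads in Mdm2(C462A) KI, 13621 and 21558 in p53Mdm2 KO, and 16636 to 21417 in p53 KO. In p53Mdm2 KO against p53 KO, 16 were higher and 14 lower (median 0.04), or 8 and 22 without p53 KO replicate 1 (median -0.23), with Cdh2 (0.95), which encodes N-cadherin, and Ly6a (1.20) higher and Col3a1 (-1.41) lower at an unadjusted p under 0.05. Between Mdm2(C462A) KI and p53Mdm2 KO, 14 were higher and 16 lower (median -0.07), or 17 and 13 without Mdm2(C462A) KI replicate 2 (median 0.21), with Itga5 and Ly6a among those lower at an unadjusted p under 0.05.

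Snail and ZEB factors are known to repress epithelial genes. Of 20 listed, 10 passed the filter on low values, and a gene could pass through 1 library or group alone, so the counts that follow are descriptions. The highest was Cdh3 (P-cadherin), at 3219 and 10329 normalized reads in Mdm2(C462A) KI, 7014 and 2786 in p53Mdm2 KO, and 1446, 4895 and 5412 in p53 KO. Of the 10, 9 were higher in Mdm2(C462A) KI than in p53 KO (median log2 difference 0.90). Without Mdm2(C462A) KI replicate 2, the library with the highest mesothelial marker sum, 4 were higher and 6 lower (median -0.15). In that library Cgn had 2494 and Krt19 1774, against 274 and 178 in Mdm2(C462A) KI replicate 1, where Krt18 and Krt19 lay below all p53 KO libraries. Spint1, a protease inhibitor of epithelia that averaged under the filter in p53 KO, had 27.1 and 62.6 normalized reads in Mdm2(C462A) KI, 58.5 and 48.9 in p53Mdm2 KO, and 1.82, 16.7 and 2.16 in p53 KO. Cdh1 (E-cadherin), the classical Snail target, had 29.1 and 159 in Mdm2(C462A) KI, 61.2 and 10.3 in p53Mdm2 KO, and 345, 7.43 and 19.4 in p53 KO. Its highest value was thus in the library with the most Snai1. Of the factors that maintain the epithelial state, 7 of 13 were tested and 6 of the 7 were higher in Mdm2(C462A) KI (median 0.49, and 4 of 7 with a median of 0.13 without its replicate 2), with Klf4 at 3116 and 6099 in Mdm2(C462A) KI, 3853 and 2213 in p53Mdm2 KO, and 1547, 2140.3 and 2286 in p53 KO (unadjusted p 0.0211).

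Of 7 peptidases related to Fap, 2 were higher and 5 lower in Mdm2(C462A) KI than in p53 KO (median log2 difference -0.23), and 4 higher and 3 lower without Mdm2(C462A) KI replicate 2 (median 0.38). Dpp7, a lysosomal dipeptidase, had 5112 and 3675 normalized reads in Mdm2(C462A) KI, 3656 and 1958 in p53Mdm2 KO, and 2370.4, 1582 and 2156 in p53 KO, with a log2 difference of 1.10 (unadjusted p 0.0137).

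**Figure D4:**
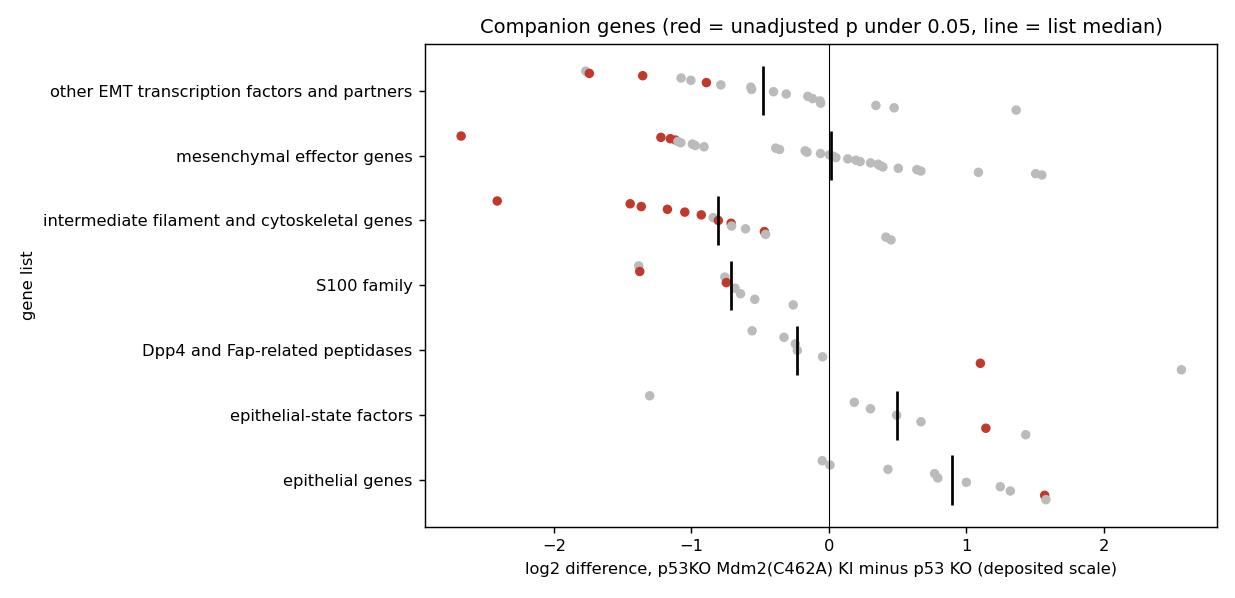
Log2 differences (deposited scale) of companion genes between p53KO Mdm2(C462A) KI and p53 KO, by list; each point is a gene, red points have an unadjusted p under 0.05 and black lines are list medians. The medians run from -0.80 for the cytoskeletal list to 0.90 for the epithelial genes, and no gene passed the adjusted threshold.

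Markers of cell types were set beside these results. The 7 fibroblast markers were read in every library, with summed normalized reads of 491924 to 885346 in Mdm2(C462A) KI, 404198 to 841646 in p53Mdm2 KO and 653610.0 to 1445620.0 in p53 KO. None of the 7 was at 0 in any library, although Lum ranged down to 52.8 normalized reads in p53Mdm2 KO replicate 2. Smooth muscle markers (5 genes, led by Acta2 and Tagln, which fibroblasts also express) summed to 88149 and 89883 in Mdm2(C462A) KI, 141201 and 182727 in p53Mdm2 KO, and 117337 to 294109 in p53 KO. That sum was lowest in both Mdm2(C462A) KI libraries, as for Vim, S100a4 and Snai1, and its part in those differences was not tested.

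Mesothelial markers (5 genes) summed to 3335 and 42149 in Mdm2(C462A) KI, 17129 and 1524 in p53Mdm2 KO, and 12667, 1732 and 3236 in p53 KO. The highest sum was in Mdm2(C462A) KI replicate 2, the library with the lowest S100a4 and Vim, where Upk3b reached 21602 and Wt1 2832. The next highest sums did not go with low values of these members. With a sum of 17129, p53Mdm2 KO replicate 1 had 110204 normalized reads of Vim and 15432 of S100a4. With a sum of 12667, p53 KO replicate 1 had the most Vim (155416) and S100a4 (37554). Macrophage and leukocyte markers (8 genes) were highest in p53 KO replicate 3, the library with the most Fap, at a sum of 3023, and lowest in Mdm2(C462A) KI replicate 2, at 325, where Emr1 and Tyrobp were at 0. In p53 KO replicate 1, the library with little Thy1, 4 of these 8 were at 0, including Ptprc. That library also had the most Sox2 (493, against 7.42 to 13.03 in the other 6). Of the other pluripotency markers, Nanog had 57.3 normalized reads there, within the range of the other libraries. Pou5f1 and Zfp42 were at 0 there, as they were in p53 KO replicate 2.

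Among the other marker lists, the neural and glial sums and the skeletal muscle sums overlapped between the groups. Epithelial sums of both p53Mdm2 KO libraries lay above those of all p53 KO libraries. Krt19 was the largest part of both (1240 and 1911 normalized reads in replicates 1 and 2). The list did not move together, since Krt8, Krt18 and Krt14 had 327, 662 and 204 in replicate 1 but 9.01, 39.9 and 1.29 in replicate 2. Endothelial sums of both p53Mdm2 KO libraries lay above those of all other libraries. Kdr made up most of both (693 and 994 normalized reads), and no other gene of that list followed this order. Epithelial markers (10 genes) summed to 408 and 2523 in Mdm2(C462A) KI, 2525 and 2016 in p53Mdm2 KO, and 470.3 to 1085 in p53 KO, and Krt5 was at 0 in 6 libraries. Endothelial markers (6 genes) summed to 467 and 612 in Mdm2(C462A) KI, 868 and 1083 in p53Mdm2 KO, and 88.2 to 613 in p53 KO. Neural and glial markers (6 genes) summed to 9809.95 and 7411 in Mdm2(C462A) KI, 11071 and 9667 in p53Mdm2 KO, and 9671 to 17101 in p53 KO, and skeletal muscle markers (5 genes) to 349 and 2493 in Mdm2(C462A) KI, 2001 and 344 in p53Mdm2 KO, and 267 to 1120 in p53 KO. The part of any of these lists in the members' differences was not tested.

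**Figure D5:**
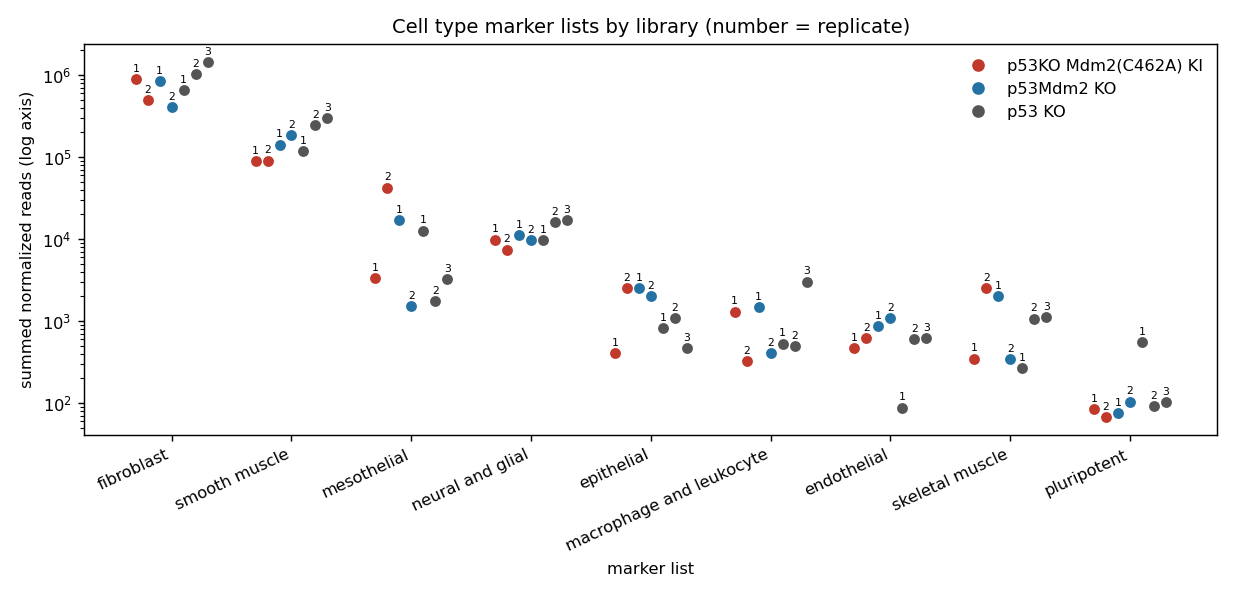
Summed normalized reads (log axis) of 9 cell type marker lists in each library, numbered by replicate and coloured by group. Fibroblast sums are the highest in every library, and the mesothelial sum of Mdm2(C462A) KI replicate 2 (42149) is the highest of its list.

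The genes most like the 3 most variable members over the 7 libraries were taken by Pearson correlation of the deposited values among 12858 genes averaging at least 100 normalized reads. For Thy1 they were Tnfrh1 (r = 0.995, Spearman rho = 0.893), Uhrf2 (0.995, rho = 1) and Tnfrsf23 (0.994, rho = 0.893). All 3 were lowest in p53 KO replicate 1, and without that library and Mdm2(C462A) KI replicate 2 the r values were 0.893, 0.818 and 0.748. Tnfrh1 and Tnfrsf23 had similar values in each library, such as 734 and 703 in Mdm2(C462A) KI replicate 1. Whether these 2 names stand for separate genes was not checked. For S100a4 they were Cenph (r = 0.993), Klhdc8a (0.989) and Lsm3 (0.988), with r of 0.951, 0.813 and 0.766 without the same 2 libraries. For Fap they were Eid2b (r = 0.967), Hhat (0.966) and Qpctl (0.965), with r of 0.927, 0.896 and 0.947 without p53 KO replicate 3 and p53Mdm2 KO replicate 2. These are descriptions over 7 libraries that share the same outlying members, chosen as the highest of 12858.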

How the data were processed

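RNA from 7 MEF samples was made into TruSeq libraries and read from one end over 50 bases, per the labels' protocols. The submitters' processing notes list Bowtie2 2.1.0, CASAVA 1.8.2 and the authors' use of DESeq 1.14.0, with mm9 as the build and no roles. How reads were counted, against which annotation and with which strand rule, is not given in the sources used here. The authors deposited variance-stabilized values close to log2 of normalized reads, with 3.36 standing for no reads. Inverting that form gave normalized reads, and 100% of these, divided by the worth of 1 read, lay within 0.05 of a whole number in each library.

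Differences were tested with limma 3.58.1 (R 4.3.3) on the deposited log2 values, with all 7 libraries in 1 fit (4 residual degrees of freedom), a mean-variance trend, two-sided p-values and Benjamini-Hochberg adjustment over 16900 genes averaging at least 10 normalized reads, at a threshold of 0.05. Fitting on the deposited scale understates changes of genes with few reads. The members and lists were chosen with earlier results of these data known. All members are described, and of each list up to 4 genes with the smallest unadjusted p under 0.05 in a comparison. Cdh1, Tpm4, S100a3 and the markers beside the results were named from the same lists, and 1 listed gene is not reported here. No pair of libraries agreed within counting noise (lowest chi-square per degree of freedom 41.5). Alternatives covered the value scale, filter, scaling, the model of the variance, weights per library, the replicate number as a block, and left-out libraries (for counts over members and lists, added after the data were seen).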

Additional observations from a re-analysis of the deposited data

How the results depend on the processing

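No member passed the adjusted threshold in limma under any alternative, and the smallest adjusted p of a member in any of them was 0.151. The count of genes passing was 0 in all 3 comparisons and under every alternative run, except 1 for p53Mdm2 KO against p53 KO without both p53 KO replicate 1 and Mdm2(C462A) KI replicate 2. At an unadjusted p under 0.05 the reported fit had 1761 genes for Mdm2(C462A) KI against p53 KO, 503 for Mdm2(C462A) KI against p53Mdm2 KO and 507 for p53Mdm2 KO against p53 KO. By voom these were 1768, 438 and 490, with 2, 2 and 0 members among them. Of the 30 member differences, 0 reversed under either pseudocount, either filter, quantile normalization, no trend or 2 groups in the fit. By voom the median of all genes was 0.12 for Mdm2(C462A) KI against p53 KO, against 0.01 in the reported fit, so that values there are read relative to it. The cause of the reversals below was not tested.

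With sample weights, Thy1 was -0.0054 and Vim 0.036 for p53Mdm2 KO against p53 KO, and Thy1 was -0.57 for Mdm2(C462A) KI against p53 KO. With scaling to library totals (RPM) and by voom, Vim was 0.038 and 0.046 for p53Mdm2 KO against p53 KO, and Twist1 0.026 and 0.019 for Mdm2(C462A) KI against p53Mdm2 KO. Without both p53 KO replicate 1 and Mdm2(C462A) KI replicate 2, Thy1 was -0.42 and Vim 0.12 for p53Mdm2 KO against p53 KO, and Twist1 was 0.27 and Twist2 0.28 for Mdm2(C462A) KI against p53 KO. For Mdm2(C462A) KI against p53Mdm2 KO in that fit, Thy1 was 0.67, Twist1 0.47, Twist2 0.0029 and Zeb1 0.048.

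Leaving out 1 library at a time, the values for Mdm2(C462A) KI against p53 KO ran from -0.98 to 3.04 for Thy1, -0.79 to 0.21 for Twist1 and -1.56 to 0.14 for Twist2. Against p53Mdm2 KO they ran from -0.41 to 0.87 for Fap, -1.79 to 0.67 for Thy1, -0.52 to 0.47 for Twist1, -1.70 to 0.0029 for Twist2 and -0.24 to 0.048 for Zeb1. For p53Mdm2 KO against p53 KO they ran from -0.30 to 0.67 for S100a4, -0.42 to 3.60 for Thy1, -0.32 to 0.60 for Twist2, -0.24 to 0.22 for Vim and -0.59 to 0.20 for Zeb2. Where a library is left out of a pair, the lone library is assumed to vary like the other groups.

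Deviations from the group means were correlated between same-numbered libraries. The correlation was -0.164 and -0.048 for Mdm2(C462A) KI with p53 KO and 0.039 for Mdm2(C462A) KI with p53Mdm2 KO. It was 0.043 and 0.203 for p53Mdm2 KO with p53 KO. In a group of 2 libraries the deviations mirror each other, so these values cannot decide whether same-numbered libraries share an origin. The pair with the lowest chi-square, Mdm2(C462A) KI replicate 1 and p53Mdm2 KO replicate 1, was same-numbered. The labels give such libraries only a number in common. With the replicate number as a block, the count of genes passing was 0 in each comparison, and for p53Mdm2 KO against p53 KO S100a4 was -0.23 and Twist2 -0.051.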

Other observations

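Dpp4, the closest relative of Fap and a surface peptidase of fibroblast progenitors, was named after its values were seen. It had 203 and 706 normalized reads in Mdm2(C462A) KI, 301 and 60.5 in p53Mdm2 KO, and 0.909, 107 and 161 in p53 KO. The single read in p53 KO replicate 1 lies under that library's limit of 2.73 normalized reads for a count of 0, in the same library where Thy1 and Col1a2 were lowest. Both Mdm2(C462A) KI libraries lay above all p53 KO libraries, as in 14.1% of all genes. The log2 difference was 2.57 (unadjusted p 0.0812, adjusted p 0.537 in limma). It rests in part on the single read in p53 KO replicate 1 and on the 706 in Mdm2(C462A) KI replicate 2. Its value without these libraries is not given here.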
